A study of Homo sapiens with 15 samples.

Results

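The subject is a set of 10 genes that set or oppose the epithelial to mesenchymal transition (EMT): the transcription factors SNAI1, SNAI2, ZEB1, ZEB2, TWIST1 and TWIST2, the epithelial transcription factors GRHL2 and OVOL2, and the epithelial splicing regulators ESRP1 and ESRP2. They were chosen by symbol, and all 10 were found both among the 60651 genes of the depletion dataset and among the 23792 genes of the overexpression dataset. The study asked what KIF20A, a mitotic kinesin needed for cytokinesis, does in triple negative breast cancer. RNA was sequenced from 15 libraries labelled MDA-MB231, an established human triple negative breast cancer line of mesenchymal character, grown in DMEM with serum. In the depletion dataset there were 3 SG1 and 3 SG3 libraries, whose genotype is given as KIF20A knockdown, and 3 CTRL libraries, given as WT. In the overexpression dataset there were 3 KIF20A_OE libraries, given as KIF20A overexpression, and 3 EV libraries, given as WT. The labels name no other allele or agent, do not say what SG1 and SG3 stand for, and do not say whether a group is 1 clone or whether replicates are separate cultures. The p-values therefore cover only the spread among these libraries, and part of it may be technical.

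In EMT an epithelial cell gives up its junctions and becomes motile, and the SNAI, ZEB and TWIST proteins drive this by binding E-box motifs in the promoters of epithelial genes such as CDH1, the gene of E-cadherin. GRHL2 and OVOL2 work in the other direction: both hold ZEB1 down, and GRHL2 also activates epithelial junction genes. ESRP1 and ESRP2 are RNA-binding proteins that set the epithelial splice forms of genes such as FGFR2, CD44, ENAH and CTNND1. ZEB1 and ZEB2 repress the genes of the miR-200 family, and the miR-200 microRNAs in turn silence ZEB1 and ZEB2 through their 3′ untranslated regions (UTRs). MDA-MB231 cells are known for high ZEB1 and vimentin and for the loss of E-cadherin.

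The sequences of the miR-200 loop are shown because ZEB1 and ZEB2, which share its sites, had different outcomes in the overexpression dataset. The mature microRNAs from RefSeq (GRCh38.p14) are given with the seed, bases 2 to 8, in capitals, and fall into 2 miR-200 seed groups, with miR-205-5p, which also targets the ZEB genes, as the third.
miR-200b-3p: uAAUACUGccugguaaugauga
miR-200c-3p: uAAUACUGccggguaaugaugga
miR-429: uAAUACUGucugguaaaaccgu
miR-200a-3p: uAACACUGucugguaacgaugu
miR-141-3p: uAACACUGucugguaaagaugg
miR-205-5p: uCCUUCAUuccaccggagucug

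The 3′ UTR of ZEB1, 2549 bases in GENCODE 29, held 6 matches to the seed of miR-200b-3p, miR-200c-3p and miR-429, whose site in DNA letters is CAGTATT. It held 3 matches to the seed of miR-200a-3p and miR-141-3p, with the site CAGTGTT. The site of the miR-205-5p seed, ATGAAGG, occurred 1 time. Sites were read on the transcript strand, and none of the 3 overlaps another by its letters. Among 2287 genes with a 3′ UTR within 20% of that length, ZEB1 itself included, 27.0% held at least 1 CAGTATT. As many as 6 were held by 0.0437%, a share that ZEB1 alone makes up. At least 1 CAGTGTT was held by 29.9%, and as many as 3 by 0.7%. The longer 3′ UTR of ZEB2, 5370 bases, held 5 CAGTATT, 4 CAGTGTT and 0 ATGAAGG. Of 1090 UTRs of like length, ZEB2 included, 0.0917% held as many as 5 CAGTATT, a share that ZEB2 alone makes up. A stretch around 1 site of each kind is shown for both genes, on GRCh38, with the site in capitals.
ZEB1 chr10:31527618-31527640, plus strand: attgttttatcttatCAGTATTa
ZEB1 chr10:31528031-31528053, plus strand: caaaatcatcagaatCAGTGTTt
ZEB2 chr2:144389052-144389074, minus strand: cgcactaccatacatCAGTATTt
ZEB2 chr2:144389236-144389258, minus strand: tgcaaaaattttgtaCAGTGTTa
Of the other members, SNAI2 held 1 CAGTATT, ESRP1 1 of each miR-200 site and GRHL2 1 CAGTGTT, while the 3′ UTRs of SNAI1, TWIST1, TWIST2, OVOL2 and ESRP2 held none of the 3 sites. Among all 19068 3′ UTRs, 16.0% held CAGTATT, 18.1% CAGTGTT and 11.3% ATGAAGG. A match is a description of the letters, and small RNAs were not measured.

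E-boxes of the form CAGGTG, read on the other strand as CACCTG, are the motif of the SNAI and ZEB proteins. The ZEB1 windows are described as letters only. Binding was not measured, and an effect of SNAI2 on ZEB1 was not tested. RefSeq promoter windows, 250 bases before to 50 after a start, were matched for 3 of the 10 members. Of the 7 ZEB1 windows 2 held an E-box, and the window with the most, chr10:31318966-31319265, held 3. Of all 35116 windows, each counted singly, 0.635% held 3 or more and 20.6% held any. The E-boxes of that window are shown in capitals, on the plus strand of GRCh38.p14, and their first bases lie at -242, -85 and 34 from the start.
ZEB1 chr10:31318966-31318989: ccccaccaCACCTGaggaaaactt
ZEB1 chr10:31319121-31319146: tgtcgtaaacCAGGTGcggtggggag
ZEB1 chr10:31319239-31319264: cggatggcccCAGGTGtaagcgcaga
The single windows of ZEB2 and TWIST2 held no such motif. That says only that these letters were not in these windows.

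Depth was 40.9 to 51.0 M counts per depletion library and 15.97 to 22.2 M fragments per overexpression library, with M for 1000000. Depletion levels are counts per M (CPM, with TMM library sizes) and overexpression levels are fragments per M (FPM), both without correction for gene length, and the datasets were scaled separately and not tested against each other. The limit that a count of 0 allows, 3 counts in a library, was 0.0588 to 0.0734 CPM or 0.135 to 0.188 FPM. KIF20A was 121 ± 27.9 CPM in SG1 and 75.4 ± 13.1 CPM in SG3, against 162 ± 8.75 CPM in CTRL (SD, n = 3 each), with no overlap between groups, but the difference passed the threshold in neither (edgeR quasi-likelihood adjusted p = 0.913 and 0.33). KIF20A was 1348, 269 and 896 FPM in KIF20A_OE, against 101, 143 and 124 FPM in EV (limma adjusted p = 0.00415). In bulk samples, fewer cells of a type and less RNA per cell cannot be told apart.

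The libraries labelled KIF20A_OE went against the cell line label. All 8 genes of a list that marks MDA-MB231 cells were lower in every one of them than in every EV library. Of all 15265 genes tested, 74.1% did not overlap between these groups, in either direction, and 23.4% were called lower. The list was chosen with earlier results of these data known. CD44, a hyaluronan receptor, was 0.125 to 1.23 FPM in KIF20A_OE and 523 to 788 FPM in EV. AXL, a receptor tyrosine kinase, was 0.750 to 0.812 FPM in KIF20A_OE and 811 to 1107 FPM in EV. VIM, the gene of vimentin, was 347 to 776 FPM in KIF20A_OE and 2520 to 2735 FPM in EV. In CTRL of the separately scaled dataset VIM was 558 to 816 CPM, a range that overlaps with that of KIF20A_OE. The summed level of the 8 genes was 695 to 1151 FPM in KIF20A_OE and 6790 to 8896 FPM in EV, and it was 6042 to 7018 CPM in SG1, 6068 to 6156 CPM in SG3 and 6002 to 6885 CPM in CTRL. Among lists of other cell types, summed levels in KIF20A_OE were 535 to 621 FPM for luminal breast, 14.8 to 35.1 FPM for basal breast, 83.5 to 107 FPM for fibroblast, 3.69 to 3.96 FPM for leukocyte and 1.18 to 36.6 FPM for endothelial genes. In EV they were 1117 to 1443 FPM for luminal breast, 38.7 to 67.3 FPM for basal breast, 28.7 to 102 FPM for fibroblast, 1.40 to 5.70 FPM for leukocyte and 18.3 to 31.7 FPM for endothelial genes. Genes under 1 FPM in all KIF20A_OE libraries were 4 of 12 luminal, 3 of 7 basal, 3 of 8 fibroblast, 4 of 5 leukocyte and 5 of 6 endothelial markers, and in all EV libraries 3, 1, 2, 4 and 3 of these. Their part in the results was not tested, and an effect of KIF20A cannot be told apart here from whatever else separates these libraries.

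**Figure D1:**
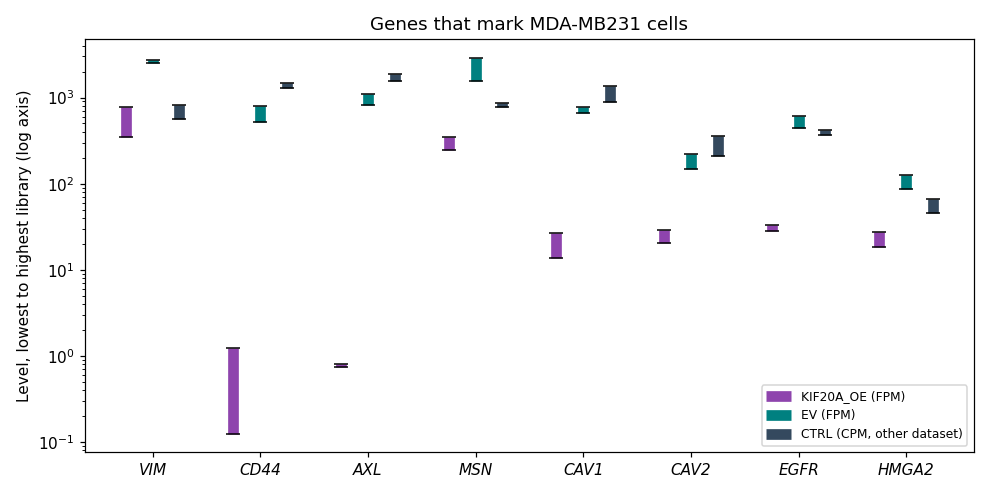
Genes that mark MDA-MB231 cells, by gene, with the lowest to the highest of 3 libraries as a bar on a log axis (FPM for KIF20A_OE and EV, CPM for CTRL of the separately scaled depletion dataset). All 8 genes lie lower in KIF20A_OE than in EV, with CD44 at 0.125 to 1.23 FPM and AXL at 0.750 to 0.812 FPM in KIF20A_OE, against at least 523 FPM for both in EV.

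Against EV, the libraries labelled KIF20A_OE had a different set of EMT factors. TWIST1, TWIST2 and SNAI2 were higher, ZEB1 and ESRP2 were lower, and ZEB2 and SNAI1 did not pass the threshold. Of the 10 members 7 passed the filter on low values (a mean of at least 1 FPM) and 5 of these were called at an adjusted p of 0.05, 3 higher and 2 lower. ESRP2 passed that filter only through EV, where it was high. Across all 15265 genes tested limma called 69.6%, 46.2% higher and 23.4% lower, and 72.3% had an unadjusted p under 0.05, so calls among the members were about as frequent as among genes at large. Log2 differences are on the scale log2(FPM + 1), which understates the change of low genes, and their median over all genes was 0.37, or 0.04 with TMM scaling.

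**Figure D2:**
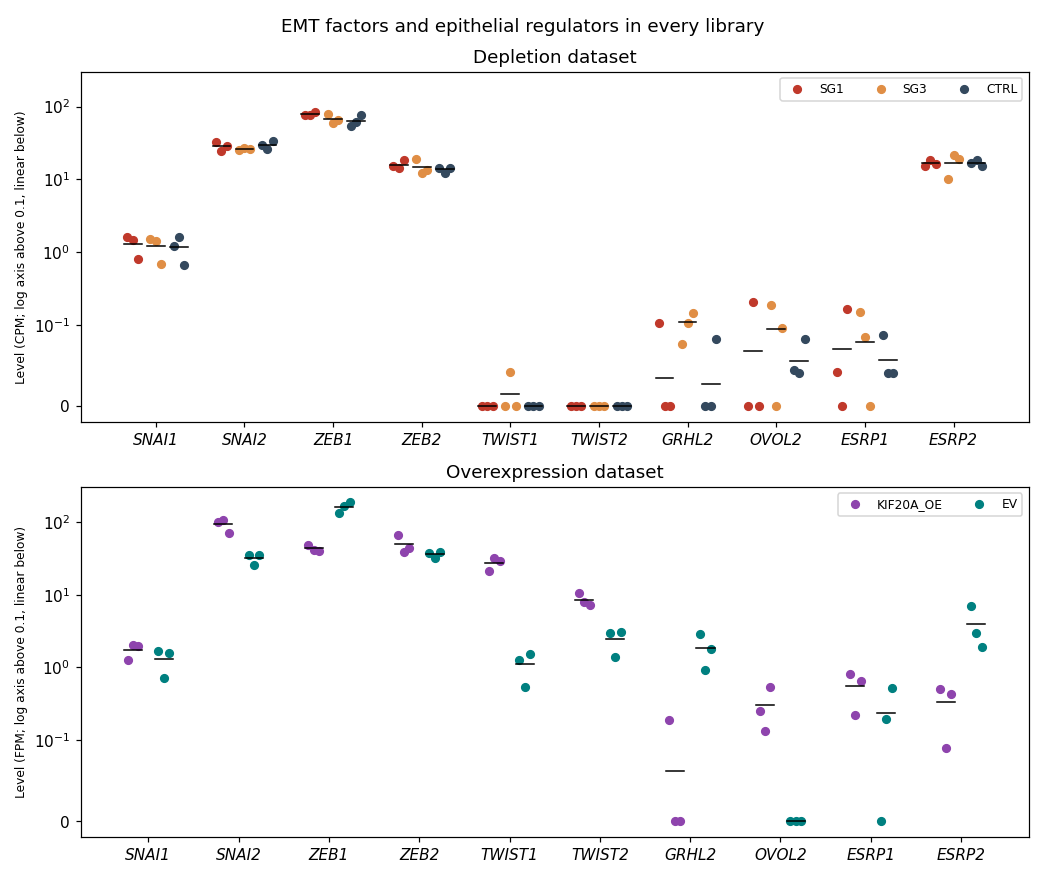
Level of each member in every library, with points for libraries and black lines for group means of 3 (upper panel CPM in SG1, SG3 and CTRL, lower panel FPM in KIF20A_OE and EV, on an axis that is logarithmic above 0.1 and linear below). In the lower panel TWIST1 lies at 21.4 to 31.6 FPM in KIF20A_OE and 0.532 to 1.53 FPM in EV, and ZEB1 at 39.8 to 48.2 FPM in KIF20A_OE and 134 to 185 FPM in EV.

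TWIST1 (ENSG00000122691.13, minus strand of chromosome 7, 19020991 to 19117672 in GENCODE 29 on GRCh38) encodes a basic helix-loop-helix factor of mesoderm that induces EMT. It was 21.4, 31.6 and 28.9 FPM in KIF20A_OE, from 341, 701 and 540 fragments, against 1.29, 0.532 and 1.53 FPM in EV, from 27, 11 and 26 fragments. The groups lay far apart. The log2 difference was 3.76 ± 0.25 (SE; 95% interval 3.05 to 4.46; limma adjusted p = 3.86e-06). Pooled over libraries, the rate in KIF20A_OE was 25.5 times that in EV (95% interval 19.9 to 33.3, counting error only). TWIST1 shares 141 exon bases with an antisense gene, and reads of the 2 cannot be told apart unless strand was used in counting, which no source used here states.

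TWIST2 (ENSG00000233608.4, plus strand of chromosome 2, 238848032 to 238910543), the close paralog of TWIST1, was 10.5, 7.98 and 7.12 FPM in KIF20A_OE, against 2.95, 1.40 and 3.12 FPM in EV. Every KIF20A_OE library lay above every EV library. Its log2 difference was 1.47 ± 0.26 (limma adjusted p = 0.00112; 95% interval 0.74 to 2.20), with a ratio of pooled rates of 3.42 (95% interval 2.83 to 4.15).

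SNAI2 (ENSG00000019549.13, minus strand of chromosome 8, 48917604 to 48921740) encodes SLUG, a zinc finger repressor of CDH1. It was 99.9, 106 and 70.5 FPM in KIF20A_OE, against 34.6, 25.9 and 35.5 FPM in EV. The lowest KIF20A_OE library was about as far above the highest EV library as the KIF20A_OE libraries were from each other. The log2 difference was 1.49 ± 0.19 (limma adjusted p = 0.000184; 95% interval 0.95 to 2.03).

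SNAI1 (ENSG00000124216.4, plus strand of chromosome 20, 49982999 to 49988886), which encodes SNAIL, the repressor that often acts early in EMT, stayed low in both groups. It was 1.25, 2.03 and 1.98 FPM in KIF20A_OE, against 1.67, 0.725 and 1.59 FPM in EV. The groups overlapped, and the log2 difference was 0.26 ± 0.24 (limma adjusted p = 0.357; 95% interval -0.40 to 0.92). With 1 library left out it ran from 0.06, without EV replicate 2, to 0.40, without KIF20A_OE replicate 1 (adjusted p = 0.846 and 0.215), and with TMM scaling it was 0.05.

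ZEB1 (ENSG00000148516, plus strand of chromosome 10, 31318495 to 31529814), the zinc finger and homeobox repressor of CDH1 and of the miR-200 genes, was the EMT factor that was lower in KIF20A_OE. It was 48.2, 41.4 and 39.8 FPM in KIF20A_OE, against 134, 163 and 185 FPM in EV. The libraries of a group lay close to each other and far from those of the other. The log2 difference was -1.86 ± 0.15 (limma adjusted p = 1.16e-05; 95% interval -2.29 to -1.44). ZEB1-AS1, an antisense gene that shares 366 exon bases with ZEB1, was 10.5 ± 0.985 FPM in KIF20A_OE and 10.1 ± 1.73 FPM in EV (SD, n = 3 each; limma adjusted p = 0.779).

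ZEB2 (ENSG00000169554.22, minus strand of chromosome 2, 144364364 to 144524583), the paralog of ZEB1 with the same targets, did not move with it. It was 65.9, 39.1 and 43.3 FPM in KIF20A_OE, against 37.2, 31.8 and 38.0 FPM in EV. The groups did not overlap, by a gap of about 1 FPM between KIF20A_OE replicate 2 and EV replicate 3. The log2 difference of 0.43 ± 0.20 did not pass the threshold (limma adjusted p = 0.0894; 95% interval -0.14 to 0.99), lay close to the median of all genes, and was 0.08 with TMM scaling (adjusted p = 0.736). Without KIF20A_OE replicate 1 it was 0.21 (limma adjusted p = 0.285), and without KIF20A_OE replicate 2 it was 0.57 (adjusted p = 0.0456). ZEB2-AS1 shares 1299 exon bases with ZEB2 on the other strand.

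Both splicing regulators were low in KIF20A_OE. ESRP2 (ENSG00000103067.14, minus strand of chromosome 16, 68229111 to 68238102) was 0.501, 0.0902 and 0.428 FPM in KIF20A_OE, from 8, 2 and 8 fragments, against 6.95, 2.95 and 1.88 FPM in EV, from 146, 61 and 32 fragments. All KIF20A_OE libraries lay below all EV libraries, and EV replicate 1 stood above the other EV libraries. The log2 difference was -1.76 ± 0.36 (limma adjusted p = 0.00228; 95% interval -2.75 to -0.77), and the pooled rate was 12.9-fold lower in KIF20A_OE (95% interval 7.96 to 22.1). ESRP1 (ENSG00000104413.18, plus strand of chromosome 8, 94641074 to 94707466) had 13, 5 and 12 fragments in KIF20A_OE, against 0, 4 and 9 in EV. These counts overlapped and did not pass the filter (ratio of pooled rates 2.38, 95% interval 1.21 to 4.98; exact two-sided permutation p = 0.2). The log2 ratio of ESRP1 was 1.25 with all libraries, 0.61 without EV replicate 1 and 2.46 without EV replicate 3.

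OVOL2 was near the detection limit in both groups, and GRHL2 in KIF20A_OE. GRHL2 (ENSG00000083307.12, plus strand of chromosome 8, 101492432 to 101669726), the grainyhead factor that represses ZEB1, had 3, 0 and 0 fragments in KIF20A_OE, against 61, 19 and 31 in EV. That is at most 0.188 FPM in KIF20A_OE and 0.918 to 2.90 FPM in EV, and the pooled rate was 35.8-fold lower in KIF20A_OE (95% interval 11.9 to 176). OVOL2 (ENSG00000125850.11, minus strand of chromosome 20, 17956979 to 18059188), a zinc finger repressor of ZEB1 and of mesenchymal genes, had 4, 3 and 10 fragments in KIF20A_OE, against 0 in each EV library. Pooled over the group, the observed rate was 5.85 times the rate that a floor of 3 fragments gives in EV. That ratio leaves out the counting error of the KIF20A_OE fragments. Neither gene passed the filter on low values. Libraries did not overlap for either, and the exact two-sided permutation p was 0.1, the smallest that 3 against 3 can give. OVOL2 shares 59 exon bases with SNX5 on the same strand. Of the 7 members that passed the filter, 6 did not overlap between groups, against 74.1% of all genes tested. Counting members that did not pass it, 8 of 10 did not overlap, and no share over unfiltered genes was computed.

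**Figure D3:**
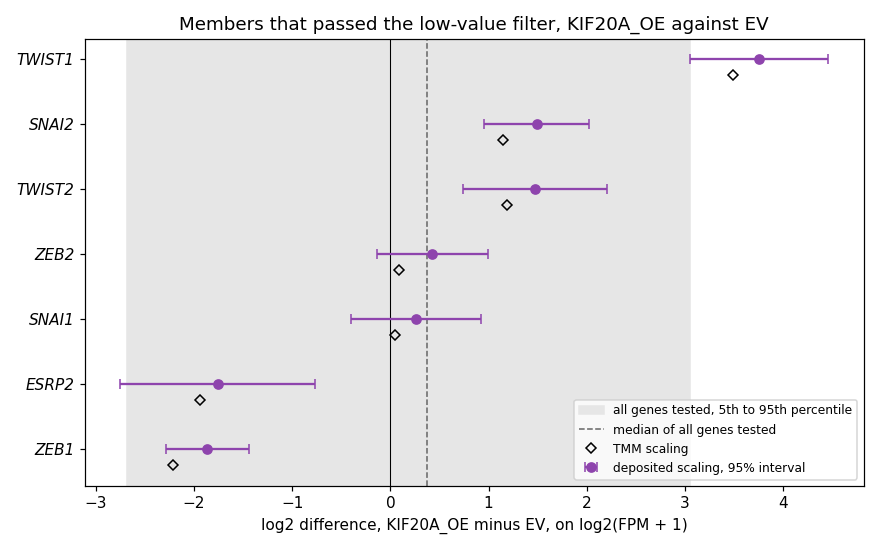
Log2 difference, KIF20A_OE minus EV, for the 7 members that passed the low-value filter, as points with 95% intervals, beside the value with TMM scaling (diamonds), the median of all genes tested (dashed) and their 5th to 95th percentile (grey). TWIST1 at 3.76 lies beyond the 95th percentile of 3.05, and the ZEB2 and SNAI1 intervals include 0.

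Set on a scale per kilobase of the longest protein-coding transcript, SNAI2 led in KIF20A_OE and ZEB1 in EV. In KIF20A_OE the order of mean levels in FPM per kilobase was SNAI2 (37.9), TWIST1 (16.4), ZEB1 (6.88), TWIST2 (6.07), ZEB2 (5.16), SNAI1 (1.04), OVOL2 (0.197), ESRP1 (0.147), ESRP2 (0.0896) and GRHL2 (0.012). In EV it was ZEB1 (25.6), SNAI2 (13.2), ZEB2 (3.72), TWIST2 (1.77), ESRP2 (1.04), SNAI1 (0.787), TWIST1 (0.669), GRHL2 (0.359), ESRP1 (0.0633) and OVOL2 at 0. The ratio of ZEB1 to SNAI2 on this scale was 0.152 to 0.219 in the KIF20A_OE libraries and 1.498 to 2.44 in the EV libraries. ZEB1 exceeded TWIST1 by 27.6 to 81.4-fold in EV, while in KIF20A_OE the ratio was 0.349 to 0.6003. ZEB1 to ZEB2 was 1.12 to 1.62 in KIF20A_OE and 5.50 to 7.84 in EV.

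Epithelial genes that ZEB and SNAI factors hold down, or that GRHL2 and OVOL2 hold up, moved in both directions. Of 28 such target genes tested, 8 rose, 15 fell and 5 were not called in KIF20A_OE against EV, with a median log2 difference of -1.05 (6 rose and 17 fell with TMM scaling). Among all genes tested 46.2% were called higher and 23.4% lower. CDH1, the common target of SNAI, ZEB and TWIST factors, was 3.52 ± 1.32 FPM in KIF20A_OE and 0.299 ± 0.365 FPM in EV (limma adjusted p = 0.000734). EPCAM, an epithelial adhesion molecule, was 2.67 ± 0.611 FPM in KIF20A_OE and 26.8 ± 8.53 FPM in EV (adjusted p = 2.67e-05). The tight junction gene CLDN4 was 1.08 ± 0.456 FPM in KIF20A_OE and 101 ± 4.31 FPM in EV. KRT19, a keratin of simple epithelia, was 0.0301 ± 0.0521 FPM in KIF20A_OE and 828 ± 73.1 FPM in EV. Another tight junction gene went the other way: CGN, the gene of cingulin, was 31.4 ± 0.28 FPM in KIF20A_OE and 2.59 ± 1.28 FPM in EV.

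Mesenchymal genes were mostly lower, as were MDA-MB231 markers, 3 of which (VIM, CD44 and AXL) the list holds. Of 30 tested, 7 rose, 21 fell and 2 were not called, with a median log2 difference of -3.16 (6 rose and 22 fell with TMM scaling). The shares over all genes tested were 46.2% higher and 23.4% lower. FN1, the gene of fibronectin, was 27.4 ± 2.12 FPM in KIF20A_OE and 1663 ± 415 FPM in EV. CDH2, the gene of N-cadherin, went the other way, at 39.6 ± 8.44 FPM in KIF20A_OE and 0.499 ± 0.182 FPM in EV (limma adjusted p = 4.17e-07). WNT5A, a WNT ligand, was 57.7 ± 27.7 FPM in KIF20A_OE and 0.351 ± 0.371 FPM in EV.

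Of 15 other EMT-promoting transcription factors tested, 7 rose, 5 fell and 3 were not called, with a median of 0.48 (6 rose and 7 fell with TMM scaling, so the direction of the split depends on the scaling). Over all genes tested, 46.2% were higher and 23.4% lower, for this list and the next. FOXC1, a forkhead factor, was 529 ± 82.5 FPM in KIF20A_OE and 46.8 ± 5.54 FPM in EV. FOSL1, an AP-1 subunit, was 1.67 ± 0.419 FPM in KIF20A_OE and 324 ± 70.4 FPM in EV. TBX3, a T-box repressor, was 57.2 ± 6.94 FPM in KIF20A_OE and was listed at 0 in all EV libraries. Of 11 other epithelial transcription factors tested, 5 rose, 4 fell and 2 were not called (median 0.38, with 5 and 4 under TMM scaling as well). EHF, an epithelial ETS factor, was 0.0301 ± 0.0521 FPM in KIF20A_OE and 112 ± 41.9 FPM in EV, while FOXA1, a forkhead factor of luminal cells, was 17.5 ± 1.48 FPM in KIF20A_OE and 0.198 ± 0.137 FPM in EV. GRHL1, a relative of GRHL2, was 1.81 ± 0.177 FPM in KIF20A_OE and 0.475 ± 0.201 FPM in EV (limma adjusted p = 0.00199).

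Among 38 other splicing regulators tested, 23 rose, 7 fell and 8 were not called, with a median of 0.45, close to that of all genes (11 rose and 12 fell with TMM scaling, so the majority that rose was lost). Over all genes tested, 46.2% were higher and 23.4% lower, for this list and the next. NOVA2, a splicing factor of neurons, was 10.2 ± 0.893 FPM in KIF20A_OE and 0.219 ± 0.0619 FPM in EV. RBM24, a splicing factor of muscle, was 0.203 ± 0.264 FPM in KIF20A_OE and 7.80 ± 1.53 FPM in EV. Of 2 mesenchymal splicing regulators, chosen after their values were seen, RBFOX2 was 203 ± 21.8 FPM in KIF20A_OE and 251 ± 19.2 FPM in EV, and QKI was 197 ± 17.8 FPM in KIF20A_OE and 162 ± 12.7 FPM in EV. Neither passed the threshold (limma adjusted p = 0.0554 and 0.0675). Of 28 genes whose transcripts the ESRP proteins splice, 9 rose, 12 fell and 7 were not called (median -0.16, with 6 and 17 under TMM scaling). FGFR2 was 72.1 ± 0.661 FPM in KIF20A_OE and 0.0392 ± 0.0679 FPM in EV, and ENAH, an actin regulator, was 401 ± 77.5 FPM in KIF20A_OE and 55.2 ± 2.02 FPM in EV. These are totals per gene, and splice forms were not measured.

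**Figure D4:**
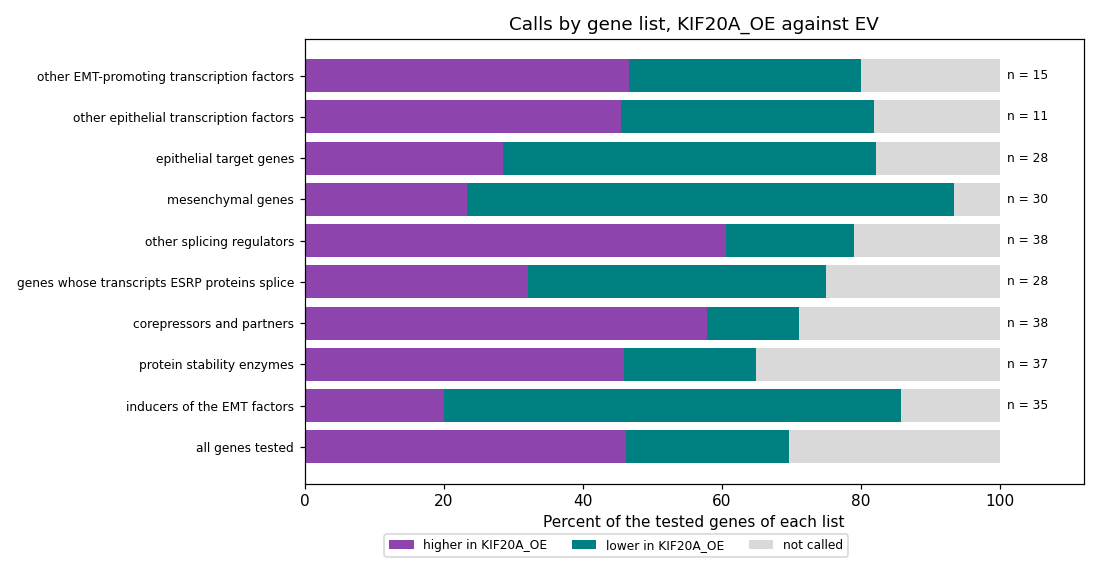
Share of the tested genes of each list that were called higher (left part of a bar), lower (middle) or not called (right) in KIF20A_OE against EV, with the number tested beside each bar and all genes tested in the lowest bar. Mesenchymal genes and inducers of EMT factors were mostly lower, and the majorities that rose among splicing regulators (23 of 38) and corepressors (22 of 38) were lost with TMM scaling (11 each).

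Of 38 corepressors and chromatin partners of the SNAI and ZEB factors tested, 22 rose, 5 fell and 11 were not called (median 0.49, with 11 and 9 under TMM scaling). PARP1, a poly(ADP-ribose) polymerase, was 1144 ± 111 FPM in KIF20A_OE and 169 ± 42.3 FPM in EV, and GFI1, a SNAG-domain repressor, was 22.3 ± 9.27 FPM in KIF20A_OE and 0.761 ± 0.18 FPM in EV. Of 37 enzymes that set the stability of SNAI, ZEB and TWIST proteins, 17 rose, 7 fell and 13 were not called (median 0.38, with 11 and 12 under TMM scaling). These enzymes were called about as often as all genes tested, of which 46.2% were higher and 23.4% lower. The same shares stand beside the other lists here. The kinase gene PRKD1 was 19.0 ± 2.52 FPM in KIF20A_OE and 0.159 ± 0.0985 FPM in EV, and the deubiquitinase gene USP51 was 12.9 ± 1.01 FPM in KIF20A_OE and 0.232 ± 0.139 FPM in EV. Inducers of the EMT factors were mostly lower: of 35 tested 7 rose, 23 fell and 5 were not called (median -1.16, with 5 and 26 under TMM scaling). TGFBR2, a TGF-beta receptor, was 22.2 ± 1.68 FPM in KIF20A_OE and 591 ± 33.9 FPM in EV, and EGFR, also among the MDA-MB231 markers, was 31.1 ± 2.72 FPM in KIF20A_OE and 511 ± 87.6 FPM in EV. Genes at or near 0 in a group could enter these counts only through the other group.

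In the depletion dataset no member was called. SNAI2, ZEB1, ZEB2, ESRP2 and SNAI1 were expressed in every library, and TWIST1, TWIST2, GRHL2, OVOL2 and ESRP1 were at or near 0. Of the 10 members 5 passed the filter on low counts, 0 were called by edgeR in any of 4 comparisons (SG1 with CTRL, SG3 with CTRL, SG1 with SG3, and both depleted groups together with CTRL), 0 had an unadjusted p under 0.05, and the libraries of the groups overlapped for all of them. Across all 16786 genes edgeR also called 0%, while 4.59%, 1.19%, 4.74% and 1.76% had an unadjusted p under 0.05 and 12.2%, 4.66%, 10.8% and 0.977% did not overlap in these comparisons in turn. DESeq2 called 2, 4, 4 and 4 genes, and 0 members.

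Libraries of the depletion dataset stood apart in ways the labels do not give. On the first principal component (37.6% of the variance) the 3 SG1 libraries, SG3 replicate 1 and CTRL replicate 3 had scores of 10.2 to 23.4, and SG3 replicates 2 and 3 and CTRL replicates 1 and 2 had scores of -22.6 to -16.1. ZEB1 was 75.8 to 85.4 CPM in the libraries on the positive side and 54.6 to 64.9 CPM in those on the negative side. ZEB2 was 14.4 to 19.1 CPM on the positive and 12.2 to 14.3 CPM on the negative side. ESRP2 was lower on the positive side, with overlap, at 10.0 to 18.5 CPM against 16.7 to 21.7 CPM. Pearson's r of log2(CPM + 1) with the score was 0.906 for ZEB1, 0.761 for ZEB2, -0.71 for ESRP2, 0.193 for SNAI2 and 0.00245 for SNAI1. The component was computed from all genes tested, these members included, and the share of genes with an r of such size was not computed. This split was seen in the data and is not a comparison of groups. The 13 mitochondrially encoded mRNAs, a list for RNA quality, summed to 15340 to 33800 CPM in SG1 and 9614 to 19600 CPM in SG3, against 9949 to 25100 CPM in CTRL. The log2 fold change was positive for 12 of 13 in SG1 against CTRL (median 0.61), for 0 of 13 in SG3 against CTRL (median -0.16) and for 13 of 13 in SG1 against SG3 (median 0.79), and edgeR called 0 of them (1, 0 and 5 at an unadjusted p under 0.05). The part of these RNAs in the ZEB1 values was not tested.

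ZEB1 was 75.8, 75.8 and 85.4 CPM in SG1 and 78.5, 58.8 and 64.9 CPM in SG3, against 54.6, 60.6 and 76.8 CPM in CTRL. CTRL replicate 3 lay within the SG1 range, and SG3 replicate 1 was the highest SG3 library. The log2 fold change was 0.30 ± 0.16 in SG1 (edgeR adjusted p = 0.913; 95% interval -0.08 to 0.69) and 0.07 ± 0.16 in SG3 (adjusted p = 1.0; 95% interval -0.31 to 0.46). Between SG1 and SG3 it was 0.23 ± 0.16 (adjusted p = 0.861). With CTRL replicate 3 and SG3 replicate 1 both left out, a choice made after seeing the data because these lay across the first component from the rest of their groups, ZEB1 was 0.44 higher in SG1 than in CTRL (edgeR adjusted p = 0.046), where 4.47% of 17108 genes were called, and 0.33 higher in SG1 than in SG3 (adjusted p = 0.0841), where 8.93% were called. These values are no independent test, since the libraries were chosen by their expression.

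ZEB2 was 15.1, 14.4 and 18.2 CPM in SG1 and 19.1, 12.2 and 13.6 CPM in SG3, against 14.3, 12.4 and 14.5 CPM in CTRL. Of the SG1 libraries 2, and of the SG3 libraries 1, lay above all CTRL libraries, and SG3 replicate 2 lay just below them. The log2 fold change was 0.21 ± 0.19 in SG1 (edgeR adjusted p = 0.921; 95% interval -0.26 to 0.68) and 0.13 ± 0.19 in SG3 (adjusted p = 1.0; 95% interval -0.34 to 0.60).

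SNAI2 was 32.2, 24.9 and 28.97 CPM in SG1 and 25.6, 26.9 and 26.2 CPM in SG3, against 29.9, 25.8 and 33.5 CPM in CTRL. SG3 had the narrowest range and sat at the low end of CTRL. The log2 fold change was -0.05 ± 0.15 in SG1 (edgeR adjusted p = 0.972; 95% interval -0.43 to 0.33) and -0.18 ± 0.15 in SG3 (adjusted p = 1.0; 95% interval -0.56 to 0.19).

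SNAI1 was 1.601, 1.496 and 0.815 CPM in SG1 and 1.54, 1.41 and 0.699 CPM in SG3, against 1.24, 1.62 and 0.660 CPM in CTRL. Each group had 1 library under 1 CPM. With this spread the log2 fold change was 0.16 ± 0.42 in SG1 (edgeR adjusted p = 0.97) and 0.06 ± 0.42 in SG3 (adjusted p = 1.0).

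ESRP2 was 15.5, 18.5 and 16.1 CPM in SG1 and 10.0, 21.7 and 19.1 CPM in SG3, against 16.7, 18.5 and 15.5 CPM in CTRL. SG3 replicate 1 was the lowest of the 9 libraries and SG3 replicate 2 the highest. The log2 fold change was -0.02 ± 0.23 in SG1 (edgeR adjusted p = 0.999; 95% interval -0.58 to 0.55) and under 0.01 in SG3 (adjusted p = 1.0; 95% interval -0.57 to 0.57). ESRP2 shares 149 exon bases with NFATC3 on the other strand.

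TWIST2 had 0 counts in all 9 libraries, and TWIST1 had 2 counts in SG3 replicate 2 and 0 in the other 8. GRHL2 had 5, 0 and 0 counts in SG1 and 4, 5 and 6 in SG3, against 0, 0 and 4 in CTRL. OVOL2 had 0, 10 and 0 counts in SG1 and 10, 0 and 4 in SG3, against 2, 2 and 4 in CTRL. ESRP1 had 2, 0 and 7 counts in SG1 and 8, 4 and 0 in SG3, against 4, 2 and 2 in CTRL. All of these lie at a few counts among 40.9 to 51.0 M per library, and none passed the filter. The pooled rate of GRHL2 in SG3 was 3.92 times that in CTRL (95% interval 1.25 to 16.2), and in SG1 it was 0.328 times that in SG3 (95% interval 0.0933 to 0.950), for counting error only. The libraries overlapped in both cases, with an exact two-sided permutation p of 0.2. For OVOL2 and ESRP1 the intervals of these ratios included 1. Among counts of 10 to 50, 62.9 to 68.0% per library were even, and the cause of this was not tested. The intervals above take each count as independent, which such an excess of even counts leaves uncertain.

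**Figure D5:**
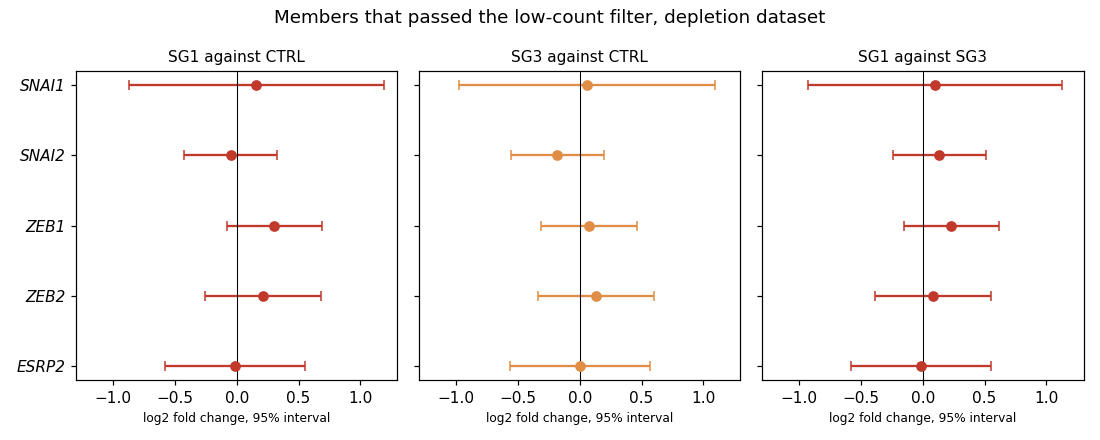
Log2 fold change of the 5 members that passed the low-count filter, with 95% intervals, in 3 panels that set SG1 and SG3 against CTRL and SG1 against SG3. All 15 intervals include 0, and the ZEB1 value of 0.30 in SG1 against CTRL is the highest of them.

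Per kilobase, ZEB1 and SNAI2 were the top pair in the depletion groups, and the order from ESRP2 to SNAI1 was shared. In SG1 the means were 12.6 CPM per kilobase for ZEB1, 11.8 for SNAI2, 4.40 for ESRP2, 1.66 for ZEB2 and 0.773 for SNAI1. In SG3 they were 10.8 for SNAI2, 10.7 for ZEB1, 4.46 for ESRP2, 1.57 for ZEB2 and 0.721 for SNAI1. In CTRL they were 12.2 for SNAI2, 10.2 for ZEB1, 4.46 for ESRP2, 1.43 for ZEB2 and 0.695 for SNAI1. The ranges of ZEB1 and SNAI2 overlapped in all 3 groups, and the later neighbours down to SNAI1 did not overlap. Within libraries, the ratio of ZEB1 to SNAI2 was 0.911 to 1.18 in SG1 and 0.846 to 1.19 in SG3, against 0.707 to 0.910 in CTRL, so SNAI2 was the higher one in every CTRL library, and the order varied between libraries in SG1 and SG3. ESRP2 stood above ZEB2 in these groups and below it in EV, which was given the same WT genotype in the other, separately scaled dataset.

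The gene whose level followed each expressed member most closely over the 9 depletion libraries was found among 9325 genes with a mean of at least 10 CPM, by Pearson's r of log2(CPM + 1), given as a description of libraries that share depth and preparation. For ZEB1 it was HAUS6 (r = 0.972), for ZEB2 ZNF761 (0.974), for SNAI2 HLCS (0.906), for SNAI1 GYS1 (0.945) and for ESRP2 ACTN4 (0.983). Each r is the highest of a large search over only 9 libraries, a choice that by itself gives high values.

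Lists around the EMT factors could hold no call in the depletion dataset, where edgeR called 0 of all 16786 genes in each comparison. The absence of calls is therefore not particular to these lists. Over the 10 lists, 0 genes were called by edgeR in any comparison, among 33 epithelial targets, 28 mesenchymal genes, 36 splicing regulators, 27 ESRP-spliced genes, 11 other EMT factors, 11 other epithelial factors, 38 corepressors, 37 stability enzymes and 37 inducers tested. RBM47, a splicing regulator of epithelial cells, was 100.1 ± 24.9 CPM in SG1 and 72.9 ± 6.0 CPM in CTRL (log2 fold change 0.46, edgeR adjusted p = 0.913). The host genes MIR200CHG and MIR205HG were at 0 in all 9 libraries. ZEB1-AS1 was 4.49 ± 0.51 CPM in SG1 and 4.21 ± 1.22 CPM in SG3, against 5.30 ± 0.45 CPM in CTRL (SD, n = 3 each), which did not pass the threshold.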

How the data were processed

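RNA from 15 libraries in 5 groups of 3 was analysed, with groups and replicate numbers taken from the sample titles. The authors deposited raw counts per gene for the depletion dataset. The overexpression values, called FPKM per the labels, summed to 1000000 in each deposited column and were whole multiples of a fixed step for all genes, so they are fragments per 1000000 (FPM), a CPM of fragments that takes no account of gene length. Whole fragments were recovered from 100% of these values within 0.001. The submitters' processing notes name STAR 2.7.3a, Trim Galore 0.6.4, limma 3.50.3, Subread 1.6.3 and featureCounts, and the build hg38. What each did, the annotation and the strand setting are not given in any source used here. Among identifiers of genes, 96.3% of the count table and 97.3% of the FPM table matched GENCODE 29, which gave coordinates.

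For the depletion counts the test was edgeR 4.0.16's quasi-likelihood test (R 4.3.3, TMM, default filter, 1 fit of 9 libraries). The planned test on a log2 scale suited FPM and was kept: limma 3.58.1 (trend, robust) on log2(FPM + 1), for genes that averaged 1 FPM or more. Adjusted p-values are Benjamini-Hochberg over all genes tested, with a threshold of 0.05. Intervals of log2 values use the t distribution with residual degrees of freedom, 6 for the depletion and 4 for the overexpression dataset, while those of pooled ratios, and the limits for 0 counts, cover counting error only: without molecular identifiers, reads are not independent molecules. Both tests were run on simulated counts, drawn independently for each library. The simulation held neither the split of the depletion libraries on the first component nor their excess of even counts. False calls were counted for edgeR only. DESeq2 1.42.0 was an alternative. The members and gene lists were chosen with earlier results of these data known. All 10 members are named, and from each list only genes by rule: the 2 smallest p, the most and least abundant, and those past the threshold, of which some are given as examples. RBFOX2 and QKI are outside this rule and were chosen after their values were seen.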

Additional observations from a re-analysis of the deposited data

How the results depend on the processing

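In the overexpression comparison none of 111 alternative values of the 10 members reversed, and the 5 called members kept their calls. The other members had no call to lose. For GRHL2, OVOL2 and ESRP1 the values with a library left out carry no adjusted p. A call was gained in 7 values. ZEB2 gained it without KIF20A_OE replicate 2. GRHL2 gained it with no filter (-1.39, limma adjusted p = 0.00121), TMM scaling (-1.51, 0.00163), edgeR on recovered fragments (-5.32, 0.00141) or DESeq2 (-5.46, 5.73e-06). OVOL2 gained it with no filter (0.37, limma adjusted p = 0.0243) or DESeq2 (4.66, 0.0444). The log2 ratio of OVOL2 to the floor of 3 fragments in EV was 1.84 without KIF20A_OE replicate 3, against 2.55. The log2 ratio of GRHL2 was -4.45 without KIF20A_OE replicate 2, against -5.16. Genes called in all were 10621, with 9583 to 10363 when a library was left out, 10569 with a pseudocount of 0.1, 13254 with no filter, 10889 with edgeR and 11928 with DESeq2 on recovered fragments (whole for 100% of values), and TMM scaling gave 5212 higher and 4944 lower, against 7048 and 3573. In the depletion comparisons edgeR called 0 genes. With no low-count filter it called 91 in SG1 against CTRL, 8 in SG3 against CTRL, 77 in SG1 against SG3 and 20 for both depleted groups together against CTRL (below, the mean). DESeq2 called 2, 4, 4 and 4 in that order. With CTRL replicate 3 and SG3 replicate 1 both left out, an alternative added after seeing the data, edgeR called 765 in SG1 against CTRL (ZEB1 among them) and 1528 in SG1 against SG3, and 0 in the others. With 1 library left out the counts were 0 to 1, 0 to 0, 0 to 5 and 0 to 2, where the highest came without SG1 replicate 2 (1 and 2) and without SG3 replicate 1 (5). Signs of uncalled members turned: ESRP2 was -0.048 in SG3 and 0.025 between SG1 and SG3 with a replicate block, and 0.0048 for the mean with no filter. With both libraries left out, SNAI1 was -0.14 in SG1, -0.42 in SG3 and -0.28 for the mean, SNAI2 0.033 in SG1, ZEB2 -0.027 in SG3 and ESRP2 0.066 for the mean. With 1 library left out, values ran from -0.15 to 0.47 (SNAI1), -0.16 to 0.045 (SNAI2) and -0.10 to 0.058 (ESRP2) in SG1, from -0.24 to 0.40 (SNAI1), -0.032 to 0.22 (ZEB1), -0.057 to 0.25 (ZEB2) and -0.22 to 0.29 (ESRP2) in SG3, from -0.18 to 0.35 (SNAI1), -0.042 to 0.27 (ZEB2) and -0.32 to 0.20 (ESRP2) between SG1 and SG3, and from -0.19 to 0.43 (SNAI1) and -0.12 to 0.14 (ESRP2) for the mean. The causes were not tested. Deviations of same-numbered replicates had r of -0.22 to 0.431 in the depletion and 0.0142 to 0.0577 in the overexpression dataset. Between replicates of different number r was -0.396 to 0.387 and -0.0497 to 0.0093. These values do not settle whether the numbers pair the samples. The replicate block left 0 calls in each depletion comparison and 10530 in the overexpression comparison. TWIST1, TWIST2, GRHL2, OVOL2 and ESRP1 lay at or near 0 in the depletion dataset, and whether depth limits them was not tested.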
